A study of Saccharomyces cerevisiae with 8 samples.

Results

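The 8 yeast cultures of this experiment fell into 3 with a high and 5 with a low level of FIT2, a cell wall protein gene of the iron regulon, and the split ran across the labelled groups. The members of each set were chosen by the measured FIT2 level of the array alone, with 2 on the log2 scale as the boundary, and plasmids were ignored. Vector control 1, Kir2.1 1 and Kir2.1 3 lay above it and form the FIT2-high set. Vector controls 2, 3 and 4 and Kir2.1 2 and 4 lay below it and form the FIT2-low set, so each of the 8 arrays belongs to 1 set. A level is a log2 value, rebuilt from a standardized score, minus the array's median over all genes, and a difference is the mean of the FIT2-high set minus the mean of the FIT2-low set.

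The arrays hold total RNA of budding yeast, Saccharomyces cerevisiae. There were 4 cultures with the vector pRSGPD426 and 4 with pRS416TEF-Kir2.1-HA, which carries the mammalian potassium channel Kir2.1, a protein that passes ions inward more readily than outward, and whose name gives the TEF promoter. Every culture grew in selective medium at 26 °C until the middle of logarithmic growth. The labels name no background strain, mark only the control arrays as a re-analysis, and do not say whether equally numbered cultures share anything. Plasmid and re-analysis mark therefore cannot be told apart.

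Yeast takes up iron by a reductive route, in which surface reductases, a copper oxidase and a permease work together, and by transporters for siderophores, the iron chelates that other microbes release. The transcription factors Aft1 and Aft2 turn on the genes of these routes when mitochondria make too few iron-sulfur clusters, and glutaredoxins with bound clusters take Aft1 off its targets when iron is ample. Low iron also brings in Tis11, also called Cth2, a zinc finger protein that binds AU-rich elements and directs mRNAs of iron-using pathways to decay. When iron is high, Yap5 turns on genes for its storage in the vacuole.

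FIT2 (YOR382W) stood at 3.95 in vector control 1, 4.34 in Kir2.1 1 and 4.37 in Kir2.1 3. In the FIT2-low set it stood at 0.01 in vector control 2, -0.67 in vector control 3, -0.25 in vector control 4, -0.03 in Kir2.1 2 and -0.65 in Kir2.1 4. The gap around the boundary is thus wide, since the lowest array inside is at 3.95 and the highest outside at 0.01. ARN2 (YHL047C), a transporter for triacetylfusarinine iron, was at 3.06, 3.36 and 3.51 in vector control 1, Kir2.1 1 and Kir2.1 3, and between -1.45 and -0.95 elsewhere. TIS11 (YLR136C) was at 2.19, 2.47 and 2.45 in the same order of arrays. In the FIT2-low set TIS11 ran from -2.44 in Kir2.1 4 to -0.69 in vector control 2, and it lay above the array's background on only 2 of those 5 arrays. All 3 genes therefore divided the arrays alike.

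GRX4 (YER174C), a glutaredoxin that binds iron-sulfur clusters and restrains Aft1, went the other way. It was at -0.02 in vector control 1, -0.10 in Kir2.1 1 and -0.23 in Kir2.1 3, against 1.20 to 1.53 in the other 5. CYC1 (YJR048W), the main cytochrome c, was at 2.09 in vector control 1, 0.81 in Kir2.1 1 and 0.61 in Kir2.1 3, against 3.27 to 3.43. Here vector control 1 stood between the other FIT2-high arrays and the FIT2-low set. In linear terms FIT2 was 23.2-fold and ARN2 22.6-fold higher in the FIT2-high set, while GRX4 was 2.76-fold and CYC1 4.48-fold higher in the FIT2-low set. FIT2 chose the sets and every array value comes from the same hybridizations, so these and all further differences between the sets are descriptions with no test. A culture is a population, and a higher level in all cells cannot be told apart from a larger fraction of cells with the transcript.

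**Figure D1:**
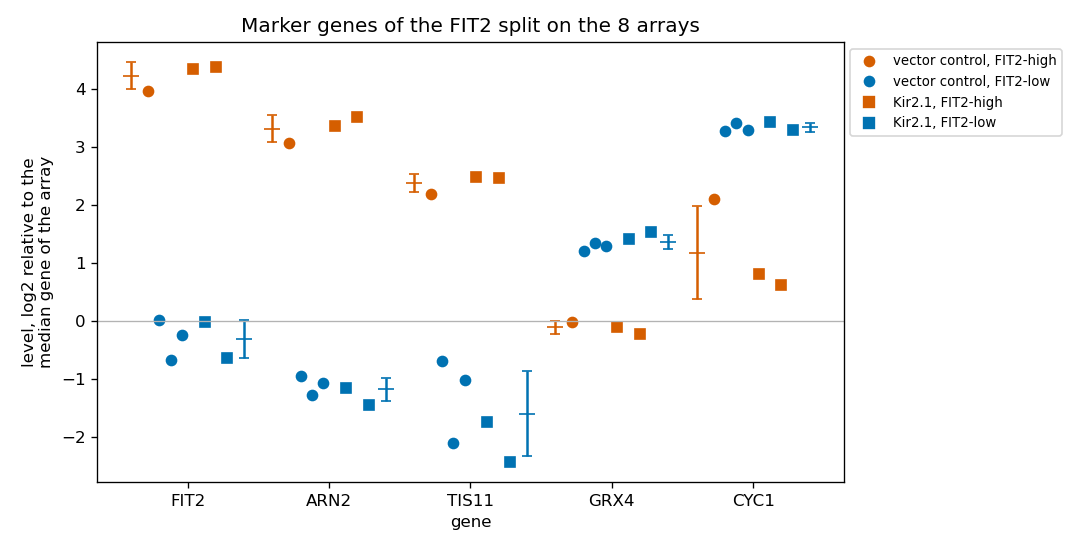
Level of the 5 marker genes on each of the 8 arrays (vertical axis, log2 relative to the array's median gene), with orange for the FIT2-high and blue for the FIT2-low set, circles for vector control and squares for Kir2.1. Bars at the side of each gene give the mean and SD of the set (n = 3 and n = 5). FIT2, ARN2 and TIS11 are high in the 3 orange arrays, GRX4 and CYC1 are low there, and the CYC1 level of vector control 1 (2.09) lies between those of the Kir2.1 arrays and the blue ones.

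The 3 FIT2-high arrays differed from the rest in a limited part of the transcriptome. Of 5449 genes, 63 were at least 2-fold higher with no overlap between the sets, which is 1.16% of the genes. Another 11 were at least 2-fold lower in the same sense, which is 0.202%. Both counts use levels as measured, with no background bound. Of the 63, 59 lay above background on at least 3 arrays, and so did all 11. Some counted genes have bounds under 2-fold, given below, such as GTO3, GDH3 and PHM8 among the higher and YDL241W among the lower. At 1.5-fold the counts were 179 higher (3.29%) and 164 lower (3.01%), and at 3-fold 23 and 1. Small displacements were common: the 3 arrays lay above all 5 others in 908 genes (16.7%) and below all 5 in 1005 genes (18.4%). The median absolute difference over all genes was 0.15, the median standard error 0.08, and 93.2% of the genes differed by less than 1.5-fold. A gene list can therefore be read against a background in which more than 1 gene in 3 separates the sets by some amount.

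The first principal component over all genes held 67.0% of the variance, with scores of 13.2, 17.0 and 18.2 for vector control 1, Kir2.1 1 and Kir2.1 3 and of -12.8 to -6.38 for the FIT2-low arrays. The second held 18.4% and was set mostly by 1 array, Kir2.1 4, at -16.7 against -2.63 to 4.93 for the other 7. One measure of array quality overlapped between the sets. The share of genes above the 95th percentile of the Schizosaccharomyces pombe probe sets, the background used here, was 84.9% to 88.6% in the FIT2-high and 85.9% to 88.6% in the FIT2-low set. Dim genes lay somewhat higher in the FIT2-high set, with a median difference of 0.11 in the dimmest decile of the genes and -0.06 in the brightest, and whether this enters the differences of dim genes was not tested.

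The siderophore genes were the most displaced. Apart from FIT2, which made the split, all 6 measured members lay higher in the FIT2-high set with no overlap, 5 of them by at least 2-fold, and their median difference was 3.23, against 0.02 over all genes. FIT3 (YOR383C), which like FIT2 encodes a wall mannoprotein that retains siderophore iron, was at 3.76 in vector control 1, 4.26 in Kir2.1 1 and 4.27 in Kir2.1 3, and between 0.84 and 1.02 in the other 5, a difference of 3.15 with a standard error of 0.13. ARN1 (YHL040C), a transporter for ferrichrome-type siderophores, was at 2.67, 2.84 and 3.26 in the same 3 arrays and between -1.06 and -0.22 elsewhere. SIT1 (YEL065W), the ferrioxamine transporter, was at 2.13, 2.35 and 2.65 there and between -1.82 and -0.02 elsewhere. It lay above background on 4 of the 5 FIT2-low arrays, with its lowest level, in Kir2.1 4, within background. Over the FIT2-high arrays the SD was 0.30 for FIT3, 0.30 for ARN1 and 0.26 for SIT1. Over the FIT2-low arrays it was 0.08, 0.34 and 0.74 in the same order. SIT1 was thus the most spread of them in the FIT2-low set, while FIT3 varied more in the FIT2-high set. ENB1 (YOL158C), the enterobactin transporter, differed by 2.34 with a standard error of 0.18. FIT1, the remaining wall protein gene, had the smallest difference at 0.90, with levels of -0.58 to 0.04 against -1.31 to -0.97.

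The reductive route was displaced in the same direction, by a smaller amount. Of 13 genes measured, 10 were at least 2-fold higher, 12 lay higher with no overlap, and SMF1, a manganese and metal transporter, lay lower (-0.29), with a median difference of 1.66 for the list. FET3, the copper oxidase of high-affinity uptake, was at 3.43, 3.67 and 3.71 in vector control 1, Kir2.1 1 and Kir2.1 3, and at 2.44, 1.70, 2.30, 2.14 and 1.09 in vector controls 2, 3 and 4 and Kir2.1 2 and 4. FTR1, the permease that pairs with it, was at 2.63, 2.91 and 2.99, and at 1.63, 0.88, 1.37, 1.39 and 0.48 in the same order. Both genes were well expressed in the FIT2-low set, and their differences of 1.67 and 1.69 are about equal.

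Among the reductases, FRE1 (YLR214W), the main surface reductase of iron and copper, differed by 1.87 with a standard error of 0.24. FRE2, the other surface reductase, was at 0.32, 0.83 and 1.40 in vector control 1, Kir2.1 1 and Kir2.1 3 and was not above background on any FIT2-low array, so that it was at least 6.16-fold higher. FRE4, a reductase of siderophore iron, was at least 2.40-fold higher by the same reckoning, in which the FIT2-low mean is replaced by the background level of each array. FRE3, a related reductase, differed by 1.66 and lay above background on 1 of the 5. FRE5 was within background on all 8 arrays, and no fold is given for it, though the list's count of higher genes with no overlap includes it. CCC2 (YDR270W), the copper pump that loads Fet3, was at 1.01, 0.88 and 1.34 in the 3 arrays and between -1.33 and -0.87 elsewhere. ATX1, the chaperone that hands copper to Ccc2, differed by 0.77, and FET4, a low-affinity metal transporter, by 1.16.

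Genes that move iron inside the cell followed with smaller differences. Of 13 measured, 5 were at least 2-fold higher and 10 higher with no overlap, with a median difference of 0.84. VMR1 (YHL035C), a vacuolar ABC transporter, was at 0.73, 0.93 and 1.12 in vector control 1, Kir2.1 1 and Kir2.1 3 and between -1.55 and -1.15 elsewhere. SMF3 (YLR034C), which exports iron from the vacuole, differed by 1.27 with a standard error of 0.12, and FRE6, the vacuolar reductase, by 1.35. FTH1 and FET5, the permease and oxidase of the vacuolar membrane, differed by 0.87 and 0.54, and HMX1, the heme oxygenase, by 0.82. The paired iron carriers of the mitochondrial inner membrane went apart. MRS4 was at 0.15, 0.67 and 0.63 in vector control 1, Kir2.1 1 and Kir2.1 3 against -0.48 to -0.13, while MRS3 was at -0.92, -0.39 and -0.89 against 0.09 to 0.40. ISU1 and ISU2, the scaffolds on which clusters are built, overlapped between the sets. LSO1 was within background on every array, and no fold is given for it. The list's counts use levels as measured and do not leave such a gene out.

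Over the lists for siderophore uptake, reductive uptake, mobilization and mRNA decay, 33 genes were measured besides FIT2, which chose the sets. Of these, 20 were among the other 62 genes at least 2-fold higher and none among the 11 lower. Of the 20, 19 stayed past 2-fold whichever array was left out. These counts use levels as measured. With FIT2 included, 21 genes passed 2-fold, and 20 of the 21 lay above background on at least 3 arrays. TIS11 alone makes up the decay list's count, since its paralog CTH1, which acts early in iron deprivation, differed by only 0.12.

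The 10 listed regulators and Yap5 targets did not move together, with 4 higher and 4 lower with no overlap and a median difference of 0.03. AFT1, the main activator, was at 0.17, 0.04 and 0.28 in vector control 1, Kir2.1 1 and Kir2.1 3 and between -1.07 and -0.52 elsewhere, a difference of 0.95 with a standard error of 0.13. AFT2, its paralog, differed by 0.24 at a level close to background. FRA1, which with Bol2 and the glutaredoxins passes the cluster signal to Aft1, was higher by 0.49, and BOL2, also called Fra2, had a difference of -0.21. GRX3 and GRX4 are near-duplicates in function, yet GRX3 overlapped between the sets (1.61 to 1.79 against 1.38 to 1.83) where GRX4 differed by -1.47 with a standard error of 0.09. CCC1, the importer of iron into the vacuole, was at -0.12, 0.31 and -0.01 in vector control 1, Kir2.1 1 and Kir2.1 3 against 0.68 to 1.25. TYW1, an iron-sulfur enzyme of tRNA modification, had a difference of -0.75. GRX4, CCC1 and TYW1 are the known Yap5 targets on the list, and all 3 lay lower in the FIT2-high set, while YAP5 itself was slightly higher (0.29).

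**Figure D2:**
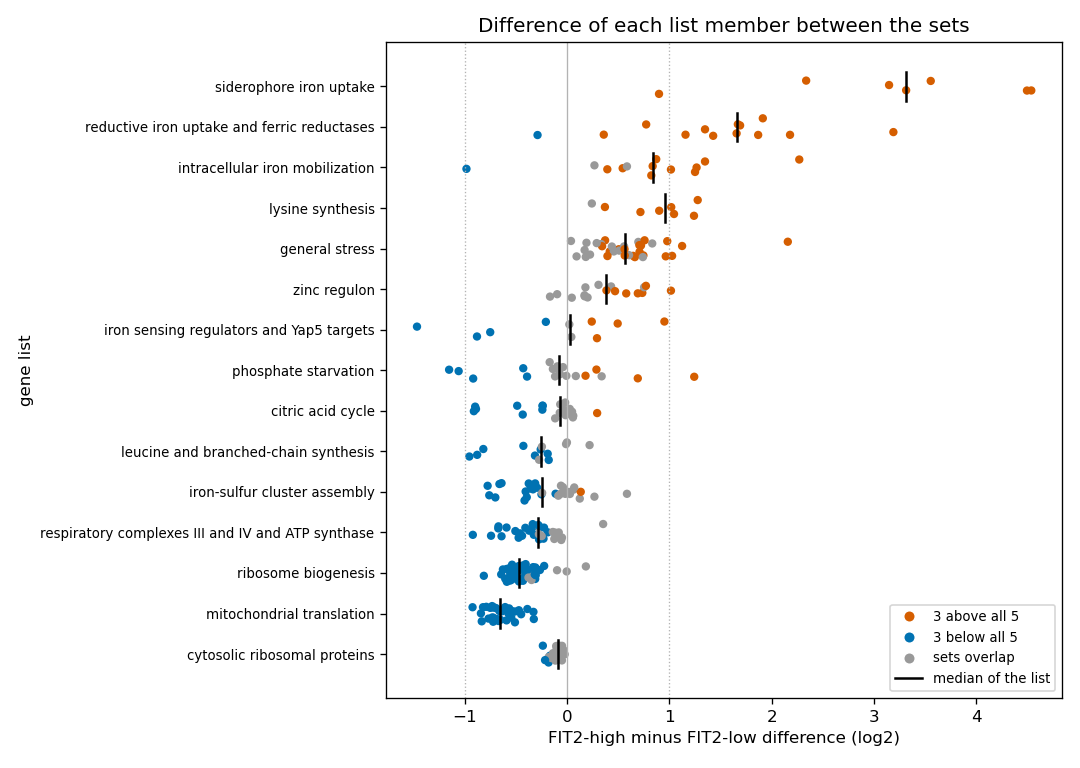
FIT2-high minus FIT2-low difference (horizontal axis, log2) of each measured member of 15 gene lists, one list to a row, with orange for genes whose 3 FIT2-high levels lie above all 5 others, blue for the reverse and grey for overlap. Black bars are list medians, 3.31 for the siderophore list with FIT2 included and -0.65 for mitochondrial translation, and dotted lines mark 2-fold.

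Part of the genes that make or use iron cofactors lay lower in the FIT2-high set, mostly by less than 1.5-fold. The lists for iron-sulfur cluster assembly, heme synthesis, heme proteins, the citric acid cycle and the respiratory complexes held 109 different measured genes, with a median difference of -0.24. Of these, 54 lay lower and 5 higher with no overlap, and 20 and 3 did so by at least 1.5-fold. The median of the heme protein list was -0.12, with 5 of 15 genes lower and 2 higher with no overlap, and CYC1, given above, and CYB5 had its largest negative differences. CYB5, cytochrome b5, was at 0.62, 0.26 and 0.19 in vector control 1, Kir2.1 1 and Kir2.1 3 against 1.18 to 1.61. CCP1, cytochrome c peroxidase, was at 1.10, 1.22 and 0.86 against 1.86 to 2.01. CYT1, cytochrome c1, was at 1.98, 1.41 and 1.42 against 2.25 to 2.51. Not every heme protein followed, since the reductase FRE1 and the catalase CTT1 (0.71) were higher.

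Iron-sulfur enzymes of central metabolism were among the lower genes. ACO1, aconitase, was at 2.48, 2.13 and 2.004 in vector control 1, Kir2.1 1 and Kir2.1 3 against 3.01 to 3.28. SDH2, the iron-sulfur subunit of succinate dehydrogenase, was at 1.79, 1.80 and 1.46 against 2.40 to 2.85, and SDH1, the flavoprotein subunit, differed by -0.90. In all, 8 of 19 measured genes of the citric acid cycle lay lower with no overlap and 1 higher, with a median difference of -0.07, so most of the cycle lay close to the median gene. LEU1, the iron-sulfur isomerase of leucine synthesis, was at 2.02, 1.86 and 1.69 against 2.56 to 2.95. GLT1, glutamate synthase with an iron-sulfur cluster, was at 1.61, 1.35 and 1.13 against 2.24 to 2.45, and GDH3, a glutamate dehydrogenase that needs no iron, was at least 1.60-fold higher. ILV3, the iron-sulfur dehydratase of branched-chain synthesis, differed by -0.82, and LEU9, the minor isopropylmalate synthase, by -0.88. BIO2, the iron-sulfur enzyme biotin synthase, differed by -0.58 with a standard error of 0.17.

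The machinery that makes the cofactors was lower in part. For cluster assembly, 15 of 29 genes lay lower and 1 higher with no overlap, none by 2-fold, with a median difference of -0.24. YAH1, the mitochondrial ferredoxin, differed by -0.78, ISA1, which acts on late clusters, by -0.76, and YFH1, frataxin, by -0.70. In heme synthesis and its regulators 6 of 15 lay lower with no overlap, led by CYT2 (-0.82), which attaches heme to cytochrome c1, and COX10 (-0.79), which makes heme O. Of the 15, 5 had a positive difference, and only HAP1, the heme-responsive activator, was higher with no overlap, at 0.73. It was at 1.24, 1.44 and 1.57 in vector control 1, Kir2.1 1 and Kir2.1 3 against 0.36 to 1.05.

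Respiratory subunits and mitochondrial ribosomes lay lower as groups. For complexes III and IV and the ATP synthase, 21 of 32 genes lay lower with no overlap and none higher, with a median difference of -0.28. QCR6, a complex III subunit, differed by -0.92, and COX5A, the aerobic form of a complex IV subunit, by -0.51. For mitochondrial translation all 37 measured genes lay lower with no overlap, 24 of them by at least 1.5-fold, and their differences ran from -0.92 to -0.33 around a median of -0.65. MRPL15, a protein of the large mitochondrial subunit, was at 0.05, -0.30 and -0.30 in vector control 1, Kir2.1 1 and Kir2.1 3 and between 0.68 and 0.80 in the other 5. MRPS28, of the small subunit, was at -0.23, -0.30 and -0.35 against 0.42 to 0.53. The list mean was 0.48, 0.24 and 0.24 in the 3 arrays against 0.92 to 0.98, so this group was nearly constant over the FIT2-low arrays.

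Cytosolic ribosomal proteins differed less. All 31 measured genes had a negative difference, 4 of them with no overlap, where 18.4% of all genes lay lower in that sense. None reached 1.5-fold, and the median difference was -0.09, with overlapping list means (3.89 to 4.06 against 3.98 to 4.25). These are bright genes, and the brightest decile of all genes had a median difference of -0.06. The small negative differences are therefore not read as a trait of this list. Ribosome biogenesis, the nucleolar assembly of cytosolic ribosomes, lay lower in 45 of 53 genes with no overlap, with a median difference of -0.47, and only 6 reached 1.5-fold. RPF2, an assembly factor of the large subunit, had the largest difference at -0.81.

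Lysine synthesis was the clearest group in the opposite direction outside iron uptake. Of 8 genes, 4 were at least 2-fold higher and 7 higher with no overlap, with a median difference of 0.96. LYS1, the last enzyme of the pathway, was at 3.49, 3.64 and 3.41 in vector control 1, Kir2.1 1 and Kir2.1 3 against 2.13 to 2.36. LYS9, the enzyme before it, was at 3.89, 4.10 and 3.97 against 2.56 to 2.85, and LYS12, homoisocitrate dehydrogenase, at 3.71, 3.89 and 3.71 against 2.62 to 2.79. LYS4, homoaconitase and the iron-sulfur enzyme of the pathway, was the member whose sets overlapped (1.61 to 2.05 against 1.55 to 1.70). LYS14, the activator of the pathway, differed by 0.72.

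Methionine and sulfur assimilation leaned the other way, with 9 of 22 genes lower and none higher with no overlap and a median difference of -0.24. MET8, an enzyme of siroheme synthesis, which inserts iron, was at -1.43, -1.34 and -1.23 in vector control 1, Kir2.1 1 and Kir2.1 3 against -0.76 to -0.09. MET16, the reductase of phosphoadenylyl sulfate, differed by -0.74.

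Thiamine genes formed a further group. Their list was drawn up after THI4 had been seen among the most displaced genes, so its counts are not independent of these values. Of 16 measured, 6 were at least 2-fold higher and 13 higher with no overlap, with a median difference of 0.76. THI4 (YGR144W), which makes the thiazole part of thiamine and gives up its own sulfur in doing so, was at 3.80, 3.62 and 4.27 in vector control 1, Kir2.1 1 and Kir2.1 3, and at -0.70, 1.42, 0.27, 0.92 and 0.44 in vector controls 2, 3 and 4 and Kir2.1 2 and 4. No overlap remained despite the wide spread of the FIT2-low set. THI73, a plasma membrane carrier, differed by 1.51 and THI6, which joins the parts of thiamine, by 1.18. THI13 (1.30) is read from a probe set shared with near-identical copies and cannot be assigned to 1 of them.

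Stress genes were higher in the FIT2-high set on average, with overlap in many. In the general stress list 36 of 36 genes had a positive difference, 19 had no overlap and 3 reached 2-fold, with a median of 0.56. HSP26 (YBR072W), a small heat shock protein, was at 3.37, 3.22 and 3.71 in vector control 1, Kir2.1 1 and Kir2.1 3, and at 1.59, 1.64, 1.99, 0.94 and 0.22 in vector controls 2, 3 and 4 and Kir2.1 2 and 4. ALD3, an aldehyde dehydrogenase, differed by 1.03. NQM1, a transaldolase paralog, differed by 1.12, but lay above background on only 1 of the 5 FIT2-low arrays. Heat shock proteins as a list did not follow HSP26, with a median difference of 0.00, 5 higher and 6 lower with no overlap. Trehalose and glycogen genes overlapped through 1 array, since the list mean was 1.16 to 1.32 in the FIT2-high set and 0.65 to 0.91 in the others except Kir2.1 4, at 1.30.

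Some nutrient lists held a few displaced genes. In the zinc regulon 7 of 17 lay higher with no overlap, and COT1 (1.02), a vacuolar zinc and cobalt transporter that is also on the iron mobilization list, was the only one past 2-fold. ZRT3, which exports zinc from the vacuole, was at 3.20, 3.30 and 3.35 in vector control 1, Kir2.1 1 and Kir2.1 3 against 2.44 to 2.70. In the hexose list HXT5, a moderate-affinity carrier, was at least 2.14-fold higher, MIG2, a glucose repressor, differed by 1.02, and HXT1, the low-affinity carrier, by 0.66. The phosphate list was mixed: PHO5, the secreted acid phosphatase, differed by -1.15, GIT1, a glycerophosphoinositol carrier, by -1.06 and PHM8, a phosphatase of nucleotides, was at least 1.75-fold higher. PHO5 and GIT1 owe part of this to Kir2.1 4, which was at 2.04 and 1.20 against 0.34 to 0.62 and -0.54 to -0.19 in the other FIT2-low arrays. Without Kir2.1 4 their differences were -0.85 and -0.74, under 2-fold.

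Of the 63 higher genes, 33 belonged to one of the lists other than thiamine, and of the 11 lower ones, 6. The share of all genes that these lists hold is not given here, so neither count is read as an excess. The lists were also chosen with earlier results of these data known. Among genes on no list, FMT1, which formylates the initiator methionyl-tRNA of mitochondria, was at least 4.80-fold higher, and GTO3, an omega-class glutathione transferase, at least 1.39-fold higher. FMT1 was at -0.18, 0.77 and 0.88 in vector control 1, Kir2.1 1 and Kir2.1 3 against -2.76 to -2.20, all 5 of them within background. YTP1, of unknown function, was at 1.02, 1.29 and 1.39 against -1.002 to -0.63. CTP1 (1.67), the mitochondrial citrate carrier, was also higher, and so was TKL2 (1.90), a minor transketolase that lay above background on 1 of the 5 FIT2-low arrays. Among the lower genes, PTR2, the carrier of small peptides, was at 0.76, 0.47 and 0.45 in vector control 1, Kir2.1 1 and Kir2.1 3 against 1.91 to 2.24. CIR2, a mitochondrial protein related to electron transfer flavoprotein dehydrogenase, was at -0.02, -0.66 and -0.996 against 0.63 to 0.98. MF(ALPHA)2, a minor gene of the mating pheromone alpha-factor, was at 1.83, 2.15 and 1.48 against 2.49 to 3.41. The unnamed reading frame YDL241W was at least 1.65-fold lower.

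**Figure D3:**
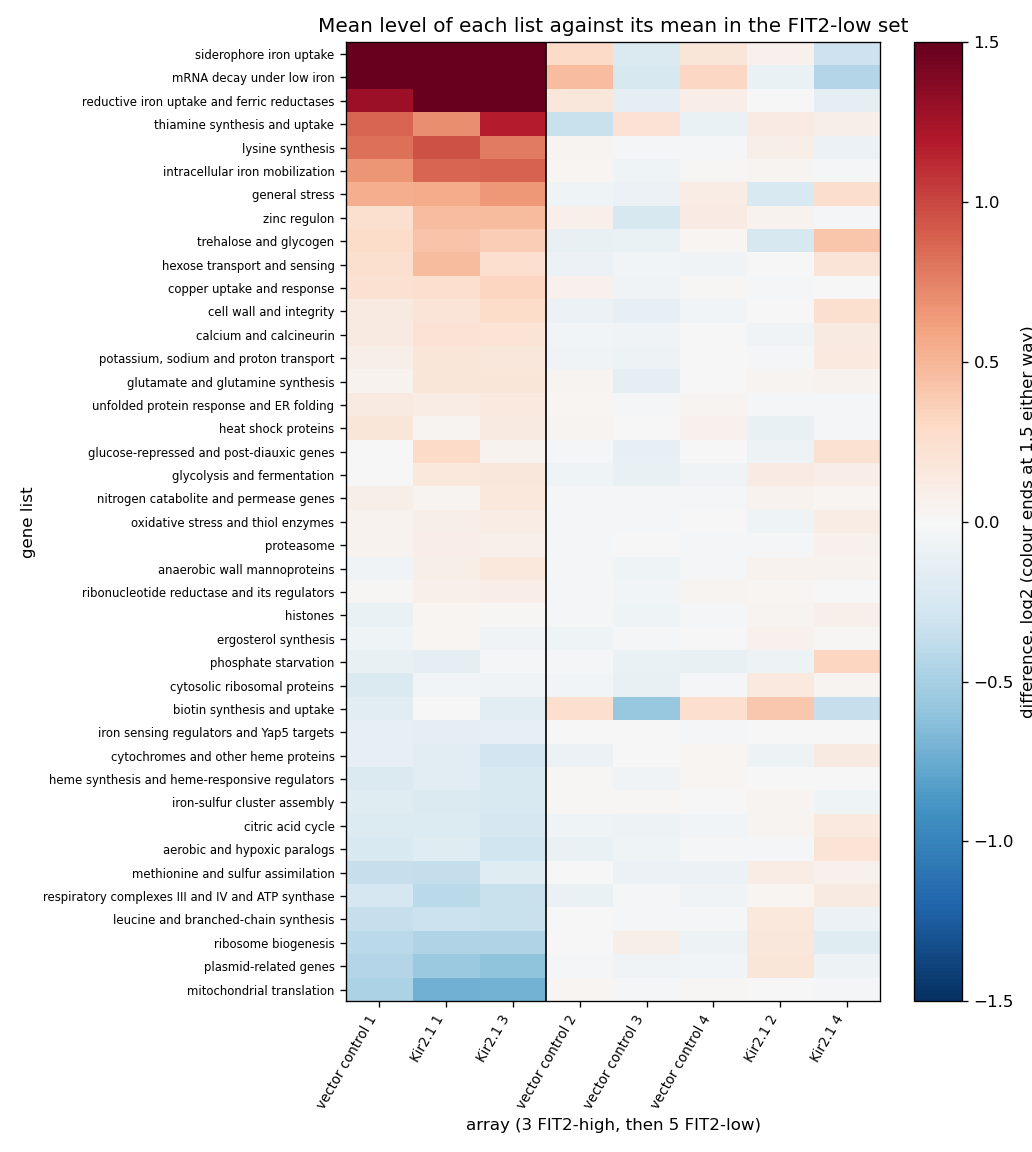
Mean level of 41 gene lists on each array, shown as colour relative to the list's mean over the FIT2-low set (log2, red higher and blue lower, colour ends at 1.5). The 3 FIT2-high arrays stand left of the line. Iron uptake, thiamine and lysine lists are red in all 3, and mitochondrial translation is blue in all 3. Kir2.1 4 lies above the other FIT2-low arrays in the phosphate list and in the trehalose and glycogen list.

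Over the 41 lists, 24 list means separated the sets and 17 overlapped. The 24 are not independent. They include the siderophore list with FIT2, which made the split, and the thiamine list, drawn up after its values were seen. A mean can also rest on 1 member. The copper list had a median difference of 0.05 with FRE1 at 1.87, and the plasmid-related list a median of 0.01 with CYC1 at -2.16. Potassium, sodium and proton transport, the list closest to the function of Kir2.1, overlapped (0.64 to 0.73 against 0.48 to 0.70), as did histones, ergosterol synthesis, glycolysis and fermentation and nitrogen genes. Leaving out Kir2.1 4 separated 7 of the 17. Potassium, sodium and proton transport was one of them (0.64 to 0.73 against 0.48 to 0.55), and trehalose and glycogen, cell wall and integrity and calcium and calcineurin were others. Kir2.1 4 was thus near the FIT2-high arrays in these lists and far from them in the iron lists.

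The FIT2-low set was not uniform. Of the iron genes past 2-fold, 14 other than FIT2 lay above background on all 8 arrays. Vector control 2 had the highest of the 5 low levels in 9 of them, Kir2.1 4 the lowest in 8 and vector control 3 the lowest in 6. Over the 4533 genes above background on all arrays, the same arrays were highest in 14.6%, lowest in 31.8% and lowest in 24.3%. In ARN1 the levels were -0.22, -0.87, -0.38, -0.62 and -1.06 in vector controls 2, 3 and 4 and Kir2.1 2 and 4. FET3 and FTR1, given above, had the same order of arrays, except that vector control 4 and Kir2.1 2 were nearly level in FTR1. FIT3 showed no such spread, with an SD of 0.08 over the 5 arrays, against 0.55 for FET3.

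Other nutrient genes ordered the FIT2-low arrays differently. THI4 was lowest in vector control 2, the array in which ARN1, FET3 and FTR1 were highest of the 5, and highest in vector control 3. BIO5, a carrier for a biotin precursor, was at 2.87, 1.63, 2.89, 3.08 and 1.73 in vector controls 2, 3 and 4 and Kir2.1 2 and 4, and at 1.93, 2.08 and 1.75 in vector control 1, Kir2.1 1 and Kir2.1 3. The biotin list as a whole overlapped, with means of 2.05 to 2.23 in the FIT2-high and 1.66 to 2.63 in the FIT2-low set. VEL1, a gene of the zinc regulon, was at -0.89 in vector control 3 and -0.30 in Kir2.1 4 against 0.07 to 0.68 in the rest of the set. BIO5 and VEL1 thus shared the low levels of vector control 3 and Kir2.1 4 with ARN1 and FET3, and THI4 did not.

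**Figure D4:**
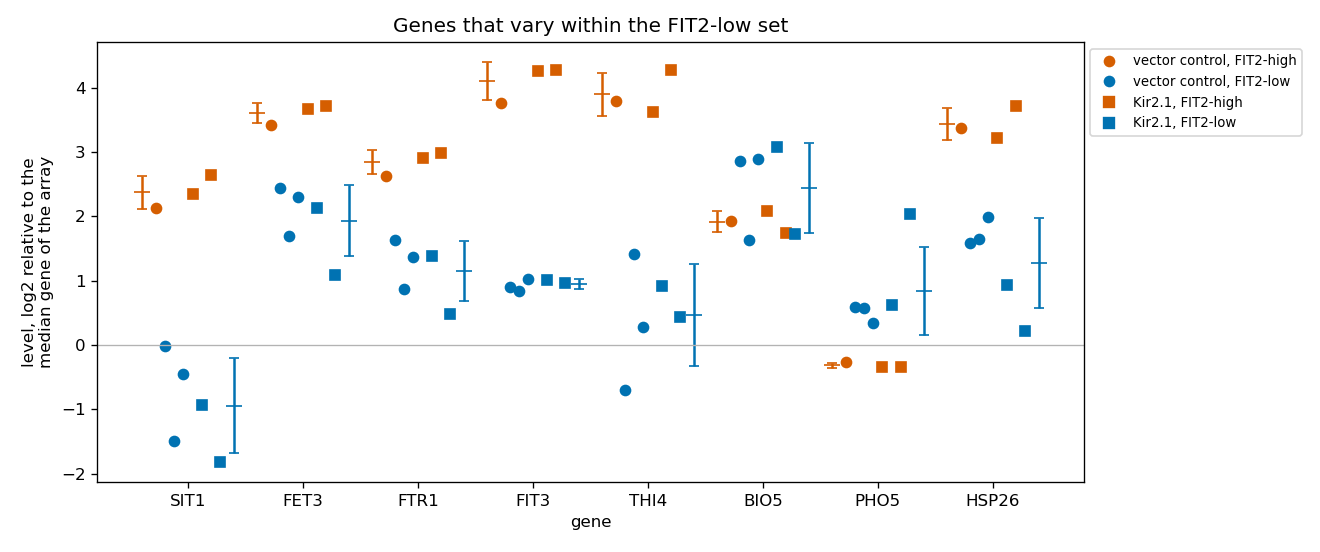
Levels of 8 genes on each array (vertical axis, log2 relative to the array's median gene), coloured by set and shaped by plasmid, with the mean and SD of each set (n = 3 and n = 5) at the sides. SIT1, FET3 and FTR1 spread within the blue FIT2-low set while FIT3 does not (0.84 to 1.02), and SIT1 in Kir2.1 4 lies within background. BIO5 overlaps between the sets, and PHO5 has 1 high array, Kir2.1 4 at 2.04.

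The split was then compared between the labelled groups, which share no array. Vector control 1 against vector controls 2 to 4, and Kir2.1 1 and 3 against Kir2.1 2 and 4, gave differences with a Pearson correlation of 0.890 across the 5449 genes, which are not independent replicates. For the 63 higher and 11 lower genes the direction within each group follows from how they were picked, and only the size is free: 49 and 5 of them differed by at least 2-fold in each group separately. The size was unequal. Over these 74 genes the vector control difference was a median 0.80 of the Kir2.1 difference, with quartiles of 0.72 and 0.97. Vector control 1 lay below both other FIT2-high arrays in 41 of the 63 higher genes and above both in 7 of the 11 lower ones. Over all genes it lay below both in 2433 and above both in 1433. Leaving vector control 1 out raised the lower count from 11 to 21 and the higher count from 63 to 74. Within the Kir2.1 arrays alone the counts were 26 lower and 79 higher. No overlap is easier to meet there, with fewer arrays. ARN2 differed by 4.16 in the vector group and 4.75 in the Kir2.1 group, mitochondrial translation by a median of -0.49 and -0.71, and lysine synthesis by a median of 0.92 and 0.98. The respiratory complexes had medians of -0.21 and -0.43, and THI4 was about equal, at 3.47 and 3.27.

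**Figure D5:**
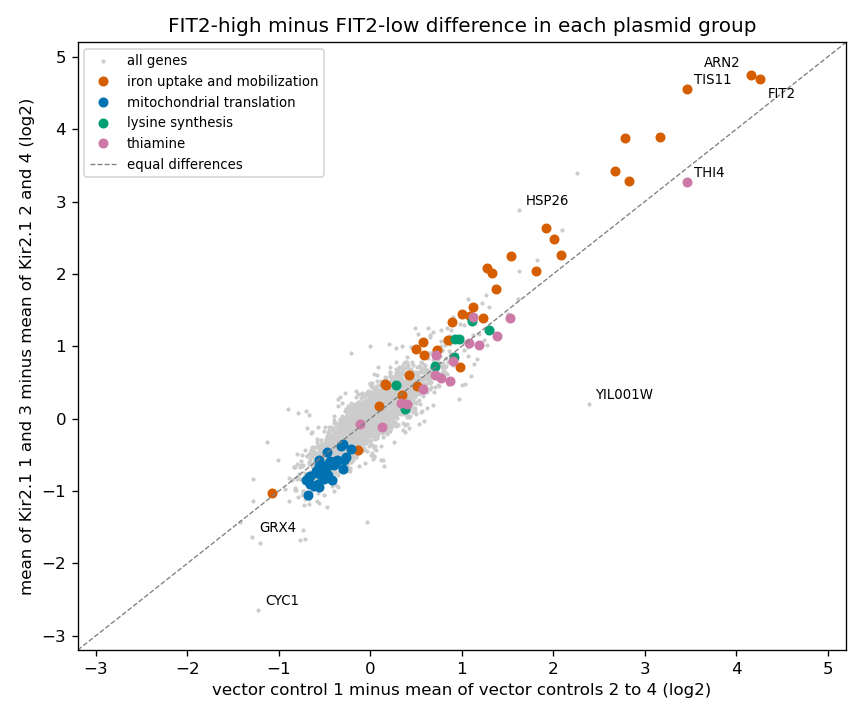
Each gene's difference within the vector control arrays (horizontal axis, log2) against that within the Kir2.1 arrays (vertical axis, log2), with all 5449 genes in grey and 4 groups of genes coloured. Iron genes lie near or above the dashed line of equal differences, CYC1 lies further down than across (-2.65 against -1.23), and YIL001W stands alone at the right (2.39 against 0.20).

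The plasmid group was not used in making the split, so it can be tested. With the split as a covariate, limma called no gene between Kir2.1 and vector control out of 5449 (0%) at an adjusted p under 0.05, with a smallest adjusted p of 0.210 and 873 genes at an unadjusted p under 0.05. Without the covariate the latter count was 455, again with no gene called. An unmoderated test called none, with 863 genes at an unadjusted p under 0.05. Among the iron genes, ISU1 differed by 0.40 (SE 0.12, limma adjusted p = 0.210, Kir2.1 minus vector control) and MRS4 by 0.30 (SE 0.08, limma adjusted p = 0.210). URA3, the marker of such plasmids, differed by 0.09 with a standard error of 0.16, TDH3 by 0.20 and TEF2 by 0.19, both with a standard error of 0.05, and none of the 3 was called. Leaving out the centring on the array median moved every gene by the same amount and gave 498 genes lower in Kir2.1.

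The interaction of plasmid and split asks whether the difference was of unequal size in the 2 labelled groups. It was called in 1 gene (0.0184%), the unnamed reading frame YIL001W, at -2.18 (SE 0.12, limma adjusted p = 0.00151). YIL001W was at 1.90 in vector control 1 and between -0.58 and -0.25 on all 7 other arrays, so the call rests on 1 array. CYC1 came next with an interaction of -1.42 (SE 0.15, limma adjusted p = 0.0716), and 132 genes had an unadjusted p under 0.05. With Kir2.1 2 left out 67 genes were called and with Kir2.1 4 left out 2, and without vector control 1 the term cannot be estimated. One FIT2-high array in the vector group leaves its spread there to be taken from the other cells of the design.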

How the data were processed

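Total RNA of 8 yeast cultures was hybridised to 1-colour Affymetrix arrays that carry probe sets for S. cerevisiae and S. pombe. Per the labels' protocols, RNA was taken with hot phenol, cleaned on a column and labelled as cRNA with a kit that primes at the 3' end. The values the authors deposited are a standardized score for each of 10715 probe sets, with mean 0 and SD 1 on every array. For the probe summary and the background step the labels and files name no method (not given in the sources used here).

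Their shape is that of a linear intensity, so a log2 scale was rebuilt: log2 of the score minus the array's lowest score plus 0.005, minus the median over S. cerevisiae genes. Where the true zero lies is unknown, and dim genes depend on it most. The design had assumed log values. The platform annotation gave 5498 probe sets 1 S. cerevisiae gene, 1746 an S. pombe gene, 1 several genes and 3470 no entry. The brightest probe set stood for a gene with several, which left 5449 genes, 118 of them from shared probe sets. Symbols follow RefSeq assembly R64.

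Sets of 3 and 5 arrays were compared by means, SDs, a standard error from the SD pooled within sets, and overlap. A gene counts as at least 2-fold different only with no overlap. The plasmid term and its interaction with the split were fitted with limma 3.58.1 in R 4.3.3 (lmFit, eBayes, two-sided, Benjamini-Hochberg adjustment over all genes) and were tested on simulated data. P-values measure the spread between these samples, which the labels do not trace further than biological replicates. The number of arrays limits the precision. Alternatives covered the zero, centring, quantile normalization, dim genes, probe sets, fold, plasmid terms, array weights and each array left out.

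The members, markers, lists and tests were chosen with earlier results of these data known. Named were the 5 markers, the 15 largest positive and 15 largest negative differences with no overlap and above background on at least 3 arrays, the 3 largest differences of each list, up to 10 called genes of each term, and URA3, TDH3 and TEF2. Other genes were chosen after their values were seen, and so was the thiamine list. A gene that is above background on no array of one set is given as a bound, and where only some arrays of a set measured it the text gives their number. No sequence or coordinate is printed, because no table of sequences was used here and no genome build is named.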

Additional observations from a re-analysis of the deposited data

Results flagged for a closer look

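Within the FIT2-low set of 5 arrays, 130 named genes and 41 list means were examined for 1 array far from the other 4, and 12 genes and 5 lists had one, where chance gives about 1 in 20. Of these 17, Kir2.1 4 was the array in 13. PHO5 was at 2.04 and GIT1 at 1.20 in Kir2.1 4, above 0.34 to 0.62 and -0.54 to -0.19 in the others. The glycogen synthase GSY2 was at 1.42, the wall protein gene PIR3 at 3.17, the repressor MIG2 at 0.76 and the activator CAT8 at -1.90, each the highest of the 5. Kir2.1 4 was lowest in the unnamed YOL014W at -0.30, the mitochondrial genes MAM33 at 1.81 and MTO1 at -0.23, and YFH1 at 0.0075. List means of Kir2.1 4 stood above the rest for aerobic and hypoxic paralogs at 1.72, phosphate starvation at 0.83 and the proteasome at 1.84. Kir2.1 2 stood apart in RPS0A, a cytosolic ribosomal protein gene, at 3.90, in RPN12, a proteasome subunit gene, at 1.89 and in the plasmid-related list at 4.19, and vector control 3 in the glutamate and glutamine list at 1.66. Over its labelled group of 4, vector control 1 stood apart in the same sense in 46 of the 130 named genes, which follows from how the sets were chosen.

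The interaction of YIL001W, -2.18, rests on vector control 1, and no test result is read from it. Of the 3470 probe sets with no gene entry, 0.634% were at least 2-fold different between the sets with no overlap, against 0.515% of the S. pombe probe sets, which serve as background. Nearly all of them lay higher in the FIT2-high set, with 21 higher and 1 lower for no entry and 9 and 0 for S. pombe. Whether this enters the differences of dim genes was not tested.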

How the results depend on the processing

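The count of 63 genes at least 2-fold higher moved to 110 with the replicate block, to 179 at 1.5-fold and 23 at 3-fold, and leaving out 1 array gave 59 to 74. The count of 11 lower genes moved to 28 with the replicate block, 26 within the Kir2.1 arrays, 164 at 1.5-fold and 1 at 3-fold, and leaving out 1 array gave 9 to 21, with 21 without vector control 1. Whichever single array was left out, 49 of the 63 and 6 of the 11 genes passed each time. The labels do not say that equal replicate numbers mark pairs, and not every pair correlated positively: deviations of same-numbered arrays from their group correlated at 0.81, 0.69, -0.66 and 0.39. These signs follow the split, which takes number 3 apart and the other numbers together, so they bear on pairing no further. With the block no plasmid gene was called. The plasmid term, 0 genes as reported and with each array left out (0 to 0), gave 498 without centring, which shifts all genes alike. The interaction, 1 gene as reported, gave 1 to 67 when 1 array was left out, 67 without Kir2.1 2 and 2 without Kir2.1 4, and was not run without vector control 1 or with a block. No value past 2-fold changed sign, and BIO5, which overlaps, went from -0.52 to 0.12 with the block. Of the values for named genes, 2321 stayed within 1 SD under the alternatives and 147 did not, and of those for lists 737 did and 42 did not. The causes were not tested. Signal over background limits FRE2, FRE4, FMT1 and other dim genes to bounds.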
